A study of Mus musculus with 6 samples.

Results

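The accessible chromatin around 4 mouse genes of the early response to bacterial lipopolysaccharide (LPS) was examined in macrophages: Tnf with its neighbours Lta and Ltb on chromosome 17, and Ptgs2 on chromosome 1. Members were the DNase I hotspots, stretches where DNase I cut often, that overlap chromosome 17 at 35310000 to 35360000 or chromosome 1 at 151850000 to 152020000 (mm9). The 6 libraries listed 99 such hotspots of 253044 in all. Hotspots that overlapped by at least 1 bp between or within libraries were joined, and the 99 then fell into 23 regions of 59069 in the whole series, 12 in the Tnf, Lta and Ltb window of 50 kb and 11 in the Ptgs2 window of 170 kb.

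All libraries came from primary macrophages grown from the bone marrow of C57BL/6J mice, and all cells received LPS for 8 h. In the pre-treated group (2 libraries) the cells were given Dex before LPS, in the late-treated group (2 libraries) Dex was added late, and the LPS group (2 libraries) had no Dex. Dex is the glucocorticoid of the study, and the series title names the timing of that treatment as its question. The labels give neither its dose nor the interval between the treatments, and cells without LPS were not analysed here. The labels do not say whether replicates were separate animals or cultures, so SDs and p-values cover the spread between libraries, part or all of which may be technical.

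Tnf encodes tumour necrosis factor, the secreted cytokine that macrophages release soon after LPS binds its receptor. Lta and Ltb encode lymphotoxin alpha and lymphotoxin beta, ligands of the same family, which join into a heterotrimer on lymphocytes. Ptgs2 encodes cyclooxygenase 2, the inducible enzyme that turns arachidonic acid into the precursor of prostaglandins. LPS induces Tnf and Ptgs2 through NF-kB and other factors, and glucocorticoids, acting through a receptor that binds DNA and NF-kB, are known to lower the output of both.

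The promoters of Ptgs2 and Tnf are shown because a region of the Ptgs2 window spans the start of that gene and because Tnf is the cytokine gene that the other window was drawn around. All 4 genes matched RefSeq, whose sequences run from 250 bases before to 50 bases after each gene's start in GRCm38.p6. These positions belong to another build than the mm9 hotspots and are not comparable with them. Ptgs2 lies on the plus strand (chr1:150099781-150100080) and Tnf on the minus strand (chr17:35201958-35202257). Capitals mark the motif matches described next.
Ptgs2: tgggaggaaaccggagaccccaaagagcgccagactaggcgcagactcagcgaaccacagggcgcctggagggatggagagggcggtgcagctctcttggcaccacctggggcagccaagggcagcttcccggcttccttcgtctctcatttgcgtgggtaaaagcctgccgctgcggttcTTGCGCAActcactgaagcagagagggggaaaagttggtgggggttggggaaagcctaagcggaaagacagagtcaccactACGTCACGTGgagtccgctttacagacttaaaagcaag
Tnf: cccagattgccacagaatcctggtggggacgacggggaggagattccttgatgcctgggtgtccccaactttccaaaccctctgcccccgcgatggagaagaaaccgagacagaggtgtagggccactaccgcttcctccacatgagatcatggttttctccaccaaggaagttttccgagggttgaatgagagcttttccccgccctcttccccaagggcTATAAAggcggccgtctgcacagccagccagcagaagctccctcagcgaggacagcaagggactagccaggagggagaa

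Motifs were searched on both strands. The Ptgs2 promoter held 1 match to the C/EBP motif TTGCNNAA, 69 bases before the start and read on both strands, and C/EBP factors are activators of inflammatory genes. It also held the CRE core TGACGT on the minus strand from base 13, counting the start as base 1, and the E-box CACGTG from base 17, with 2 bases shared between them. Among all 32851 promoters of the table, 10.8% held the C/EBP motif, 7.51% the CRE core and 7.15% the E-box. The Tnf promoter held 1 TATA box, TATAAA, 29 bases before the start, and the Lta promoter held one 167 bases before (13.6% of all promoters). The NF-kB motif GGNNTTTCC was found in the Ltb promoter alone of the 4, 87 bases before the start (5.82% of all promoters). The AP-1 motif TGANTCA (7.81%) and the glucocorticoid receptor motif ACANNNTGT (6.85%) had no match in these letters of the 4 promoters. A match is a description of the sequence and not a sign of binding.

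Each hotspot carries the authors' own values. MaxD, the maximum tag density, is the height of its tallest point, and the z-score is its deposited score. How the z-score was calculated is not stated, and it did not follow MaxD alone. In pre-treated replicate 1 a MaxD of 22.6 at 151946394 had a z-score of 42.3, and one of 23.5 at 35324922 had 20.8. What the densities are scaled to is not stated. MaxD is therefore given as deposited for each library, while differences between groups are in log2 MaxD after the median of the 25091 regions that all 6 libraries listed was subtracted from each library. That median lay between 17.6 and 19.7 in the 6 libraries. The lists held 29347 to 51834 hotspots and began at z-scores of 7.98 to 11.6, lowest in both LPS libraries. Total tag numbers are unknown, and MaxD moved in whole steps of 0.334 to 0.443, within 0.1 of a step for 100% of hotspots. The test was limma on all 25091 regions at once, with Benjamini-Hochberg adjustment over all of them and a threshold of 0.05.

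In the Ptgs2 window 1 region, far from the gene, was lower with Dex before LPS by the test. The region at the gene's start also stood below both LPS libraries in all 4 Dex libraries, at differences that did not pass, and at a strong region on the other side all groups overlapped. Ptgs2 is taken to lie at about 151.947 to 151.955 Mb, reading towards higher positions. The region at 151946394 to 151947703 spans its start. The other regions that all 6 libraries listed lay 84.4 kb before that region (151862016 to 151863235), 45.3 kb past it (151991924 to 151992791) and 65.1 kb past it (152011619 to 152012730), measured between centres. No source used here ties these 3 distant regions to Ptgs2.

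**Figure D1:**
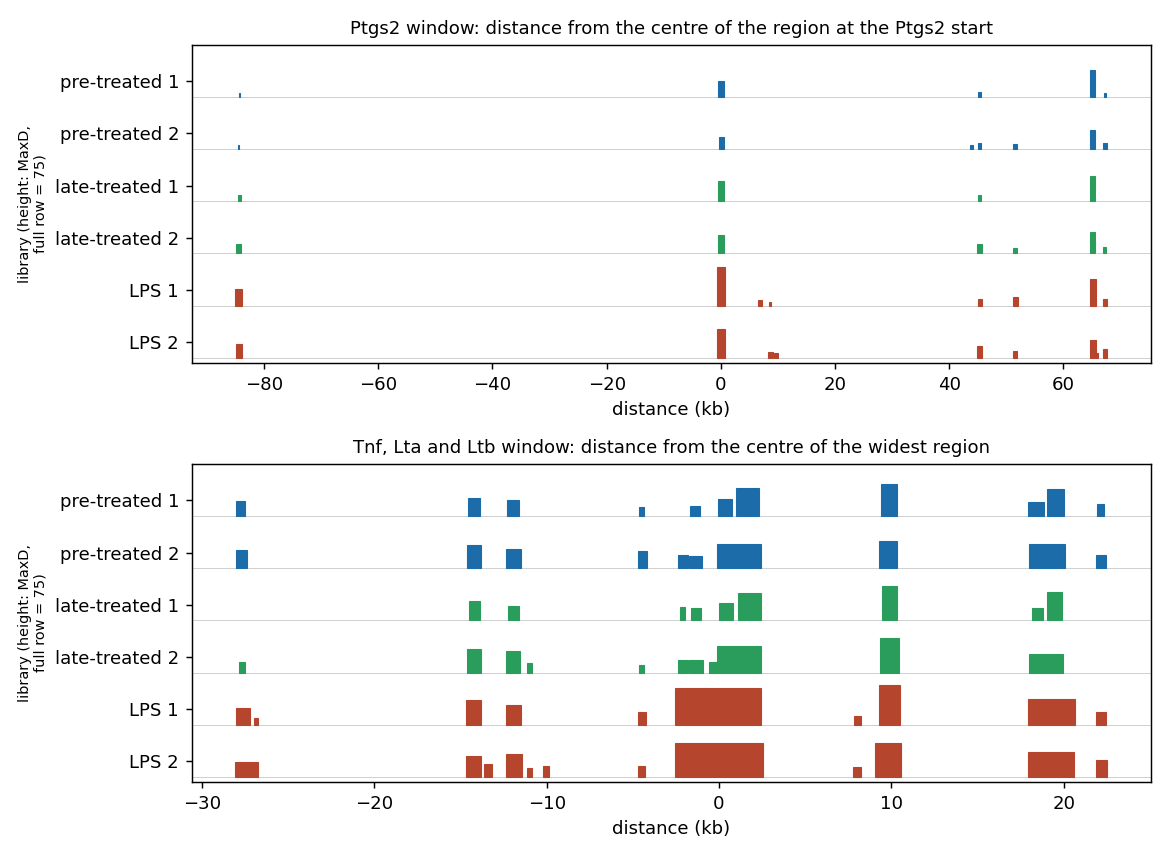
Hotspots of the 23 regions by library, as distance in kb from the centre of the region at the Ptgs2 start (top) and from the centre of the widest region of the Tnf, Lta and Ltb window (bottom); bar width is the hotspot's width and bar height its MaxD, with a full row worth 75. The bars 84.4 kb before the Ptgs2 start shrink in the 4 Dex libraries, and the single wide hotspot of both LPS libraries in the lower panel is broken into 3 or 4 pieces with Dex.

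The region 84.4 kb before the Ptgs2 start had a MaxD of 4.94 and 5.32 in the pre-treated libraries, 8.80 and 13.7 in the late-treated ones, and 23.4 and 19.4 in the LPS libraries. The groups did not overlap, and the order was pre-treated, late-treated, LPS. With Dex before LPS the density fell by 2.06 on the log2 scale (SE 0.24, 95% interval -2.61 to -1.51), to 24.0% of the level with LPS alone (limma adjusted p = 0.0268). This was the third largest fall among the 25091 regions (rank 3 from the lowest). It was the single call among the 4 shared regions of the window, where 21 of 25091 regions (0.0837%) were called in either direction, 5 of them lower.

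Leaving out any of the 4 libraries compared moved the difference only between -2.18 and -1.94. Each such fit leaves 1 library in a group, so it cannot show whether the call depends on a single library. In the pre-treated libraries the region was among the weakest hotspots listed, at z-scores of 9.78 and 9.42, where the lists began at 9.34 and 9.16, and its maxima were 12 and 14 steps high.

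With Dex late the same region stood at 52.6% of the level with LPS alone, a log2 difference of -0.93 (SE 0.24, 95% interval -1.48 to -0.38) that did not pass the test (limma adjusted p = 0.316). No shared region of either window was called in this comparison, where 20 of 25091 regions (0.0797%) were, and 1760 had an unadjusted p below 0.05. Set directly against the late-treated group, the pre-treated group had a log2 difference of -1.13 (SE 0.24, 95% interval -1.68 to -0.58), the fourth lowest of 25091 (rank 4), with an unadjusted limma p of 0.00115 and an adjusted p of 1. limma called 0 of 25091 regions (0.0%) between the Dex groups, and 780 had an unadjusted p below 0.05. The width of the region went the same way. Its hotspot was 264 and 299 bp wide in the pre-treated libraries, 551 and 903 bp in the late-treated ones, and 1198 and 1121 bp in the LPS libraries.

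The region at the Ptgs2 start, whose RefSeq promoter is printed above, had a MaxD of 22.6 and 17.1 in the pre-treated libraries, 28.4 and 26.1 in the late-treated ones, and 55.9 and 42.0 in the LPS libraries. Again no group overlapped another. With Dex before LPS it stood at 40.6% of the level with LPS alone (log2 difference -1.30, SE 0.27, 95% interval -1.92 to -0.69, limma adjusted p = 0.162), at rank 30 from the lowest. With Dex late it stood at 57.4% (log2 difference -0.80, SE 0.27, 95% interval -1.42 to -0.19, adjusted p = 0.53), at rank 172. Neither difference passed the threshold. Under quantile normalization the pre-treated difference did, at -1.38 with a limma adjusted p of 0.0315.

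Ranked by MaxD among the same 25091 regions, the Ptgs2 start was number 9871 and 14520 in the pre-treated libraries, 7426 and 8095 in the late-treated ones, and 2672 and 3039 in the LPS libraries. Its hotspot was 971 and 835 bp wide with Dex before LPS, 992 and 989 bp with Dex late, and 1305 and 1304 bp with LPS alone. The z-scores within each list were 42.3 and 38.2, then 60.6 and 54.7, then 105 and 79.1 in the same order of groups. By z-score the region remained within the stronger part of every list, between the percentiles 76.9 and 96.2. By MaxD it lay below the median of the shared regions in pre-treated replicate 2 (17.1 against 19.7).

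**Figure D2:**
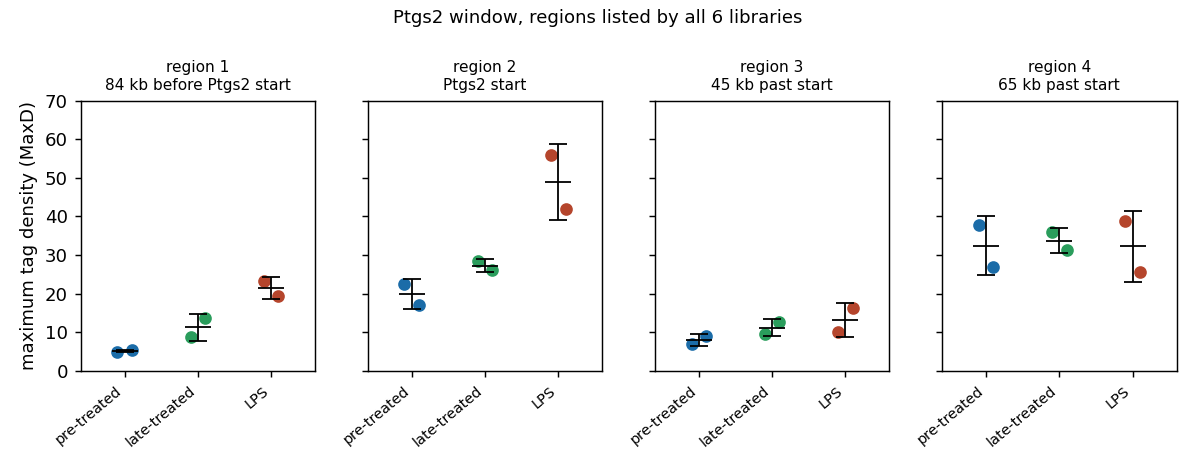
MaxD of the 4 regions of the Ptgs2 window that all 6 libraries listed; points are libraries, and bars are the mean and SD of 2 libraries. In regions 1 and 2 the pre-treated libraries lie lowest, the late-treated libraries next and the LPS libraries highest, while in region 4 all groups overlap between 25.7 and 38.8.

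At the other shared regions of the window no difference passed the test. The region 65.1 kb past the start had a MaxD of 37.9 and 27.0 in the pre-treated libraries, 36.0 and 31.4 in the late-treated ones, and 38.8 and 25.7 in the LPS libraries. All groups overlapped, and the log2 difference from LPS alone was 0.02 with Dex before LPS (95% interval -0.67 to 0.71) and 0.12 with Dex late (-0.57 to 0.81). The region 45.3 kb past the start was weak everywhere, with 7.00 and 9.11 in the pre-treated libraries, 9.60 and 12.8 in the late-treated ones, and 10.0 and 16.3 in the LPS libraries. Its log2 differences were -0.68 with Dex before LPS (limma adjusted p = 0.533) and -0.17 with Dex late (adjusted p = 0.999). The pre-treated libraries lay below both other groups here, and the late-treated and LPS libraries overlapped. Over the 4 shared regions the median log2 difference was -0.99 with Dex before LPS and -0.49 with Dex late, where the median over all 25091 regions was 0.03 in both.

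Dividing one region by another within a library takes out the scale of that library. These pairs were picked after their values were seen and have no test. The Ptgs2 start stood at 0.598 and 0.634 of the MaxD of the region 65.1 kb past it in the pre-treated libraries, at 0.789 and 0.831 in the late-treated ones, and at 1.44 and 1.64 in the LPS libraries. For the region 84.4 kb before the start the same ratio was 0.130 and 0.197 in the pre-treated libraries, 0.244 and 0.437 in the late-treated ones, and 0.603 and 0.757 in the LPS libraries. In both ratios the LPS libraries were highest and the pre-treated libraries lowest, without overlap.

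All 4 Dex libraries were below both LPS libraries in MaxD at 2 of the 4 shared Ptgs2 regions and at 1 of the 5 shared regions of the Tnf, Lta and Ltb window, against 9.11% of all shared regions. The order pre-treated, late-treated, LPS without overlap held at 2 of the 4 Ptgs2 regions and at 0 of the 5 others, against 1.48% of all shared regions. Both Dex groups are set against the same LPS libraries here.

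**Figure D3:**
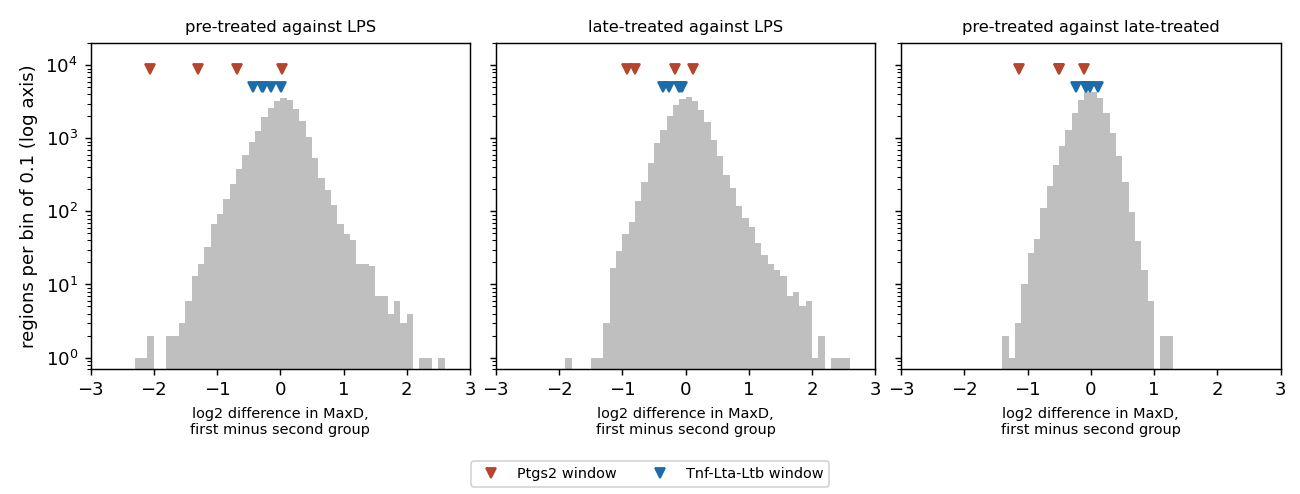
Distribution of the log2 difference in MaxD over 25091 regions (grey, number of regions per bin of 0.1 on a log axis) for each of the 3 comparisons, with triangles for the 4 shared regions of the Ptgs2 window and the 5 of the Tnf, Lta and Ltb window. The lowest Ptgs2 triangle lies at -2.06 with Dex before LPS and at -0.93 with Dex late, and the Tnf window triangles lie between -0.43 and 0.11.

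At Tnf, Lta and Ltb no shared region passed the test in any comparison. The difference that stood out was one of shape, and it depended on how short gaps between hotspots are treated. In RefSeq the 3 genes neighbour each other in the order Ltb, Tnf, Lta, between Lst1 and Nfkbil1. Gene positions in mm9 were not used here, so regions of this window are named by position and not tied to one of the 3 genes. Its 5 shared regions had log2 differences from LPS alone of -0.43 to 0.01 with Dex before LPS, with a median of -0.28, and of -0.35 to -0.05 with Dex late, with a median of -0.10. The limma adjusted p-values were 0.76 to 0.999 and 0.93 to 0.999.

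The region at 35334735 to 35339869 was the widest of both windows and is the one that broke up. Each LPS library listed it as 1 hotspot, 4974 and 5134 bp long. The pre-treated libraries listed it as 3 hotspots each and the late-treated ones as 4 each. The pieces covered 2734 and 3838 bp in the pre-treated libraries and 2954 and 4347 bp in the late-treated libraries. In all 4 Dex libraries the strongest piece was the one at the end with higher positions, starting between 35337185 and 35338434 and ending between 35339649 and 35339731, at a MaxD of 40.8, 34.9, 38.8 and 39.0. The other pieces reached 14.8 to 24.8.

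A single hotspot in both LPS libraries and at least 2 in all 4 Dex libraries was seen at 109 of 25091 shared regions (0.434%), at 1 of the 5 here and at 0 of the 4 in the Ptgs2 window. At least 3 pieces in all 4 Dex libraries were seen at this region alone of the 25091 (0.00399%). That limit was set after the region's values were seen. The breaks were not the same in all 4 libraries. Replicate 1 of both Dex groups had a break within 35338058 to 35338434, where replicate 2 of both had none. Some gaps were short, such as 35335527 to 35335581 in pre-treated replicate 2. In late-treated replicate 2 every gap was below 500 bp: 35335506 to 35335537, 35336360 to 35336727, and 35337169 to 35337216. Joining hotspots up to 500 bp apart would make the region whole in that library. Each other Dex library kept a wider gap, starting between 35336223 and 35336306 and ending between 35337185 and 35337299. At 500 bp neither the split in all 4 Dex libraries nor the count of at least 3 pieces holds. The shares over all regions were not recomputed with nearby hotspots merged. Wide regions split more often, and 9 of the 173 shared regions of at least 4000 bp (5.2%) were whole in both LPS libraries and split in all 4 Dex libraries. The LPS lists also began at lower z-scores than the Dex lists, and the part of that threshold in the joining of pieces was not tested.

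The height of this region differed less. Its MaxD was 40.8 and 34.9 in the pre-treated libraries, 38.8 and 39.0 in the late-treated ones, and 53.2 and 48.2 in the LPS libraries. All Dex libraries were below both LPS libraries. The log2 difference was -0.43 with Dex before LPS (SE 0.25, 95% interval -0.98 to 0.13, limma adjusted p = 0.76) and -0.35 with Dex late (SE 0.25, 95% interval -0.91 to 0.21, adjusted p = 0.93). The average density over all pieces of the region, weighted by their length, was 12.2 and 10.9 in the pre-treated libraries, 12.0 and 11.6 in the late-treated ones, and 15.0 and 12.8 in the LPS libraries. The Dex libraries were again below both LPS libraries, at log2 differences of -0.30 with Dex before LPS (limma adjusted p = 0.849) and -0.28 with Dex late (adjusted p = 0.949). This average leaves out the gaps between pieces.

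The region at 35346378 to 35347878 was the tallest of the window on average. It had a MaxD of 46.5 and 39.5 in the pre-treated libraries, 50 and 49.2 in the late-treated ones, and 57.2 and 48.2 in the LPS libraries. The late-treated libraries lay within the range of the LPS libraries, and the pre-treated libraries lay below both. The log2 difference was -0.29 with Dex before LPS (95% interval -0.88 to 0.29) and -0.05 with Dex late (95% interval -0.63 to 0.53). The MaxD of the widest region was 0.876 and 0.885 of that of the tallest in the pre-treated libraries, 0.776 and 0.793 in the late-treated ones, and 0.930 and 1 in the LPS libraries, a ratio formed after the values were seen.

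**Figure D4:**
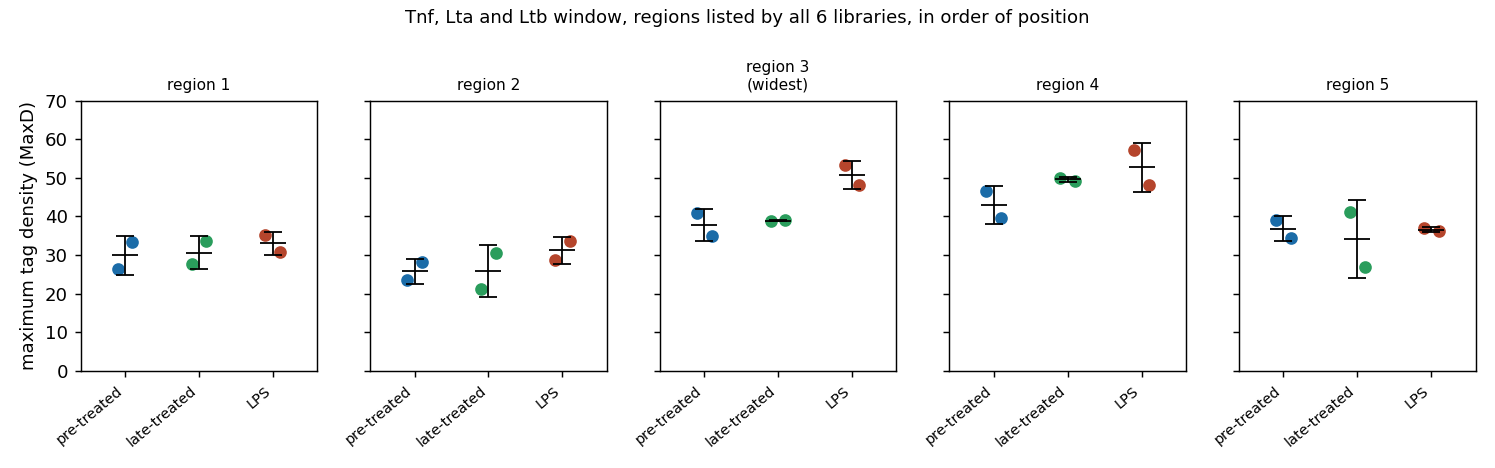
MaxD of the 5 regions of the Tnf, Lta and Ltb window that all 6 libraries listed, in order of position; points are libraries, and bars are the mean and SD of 2 libraries. Region 3 is the widest one, where the Dex libraries lie between 34.9 and 40.8 and the LPS libraries at 53.2 and 48.2; in regions 1 and 5 the groups overlap.

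At the remaining shared regions groups overlapped in at least 1 comparison. At 35322638 to 35323504 the MaxD was 26.4 and 33.4 in the pre-treated libraries, 27.6 and 33.7 in the late-treated ones, and 35.1 and 30.9 in the LPS libraries, with all groups overlapping. At 35324922 to 35325862 it was 23.5 and 28.1 in the pre-treated libraries, 21.2 and 30.6 in the late-treated ones, and 28.8 and 33.7 in the LPS libraries, with the pre-treated libraries below both LPS libraries and the late-treated ones overlapping both groups. At 35355217 to 35357954 it was 39.1 and 34.5 in the pre-treated libraries, 41.2 and 27.0 in the late-treated ones, and 37.1 and 36.1 in the LPS libraries, so that the LPS values lay inside the range of either Dex group. This last region too was 1 hotspot in both LPS libraries, 2712 and 2704 bp long. It was split in 2 in replicate 1 of both Dex groups and whole in replicate 2 of both.

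Hotspots were narrower with Dex at all 5 shared regions of this window, where each of the 4 Dex libraries covered less of the region than both LPS libraries did. The same held at 2 of the 4 shared Ptgs2 regions and at 33.9% of all shared regions, so narrowing was common across the genome. Some margins in the Tnf, Lta and Ltb window were very small. At 35324922 pre-treated replicate 2 covered 843 bp and LPS replicate 1 covered 844 bp. At 35322638 late-treated replicate 2 covered 827 bp and LPS replicate 1 covered 833 bp. Within the windows, hotspots covered 7772 and 9746 bp of the Tnf, Lta and Ltb window in the pre-treated libraries, 6619 and 9597 bp in the late-treated ones, and 12507 and 14200 bp in the LPS libraries. For the Ptgs2 window the covered lengths were 2913 and 4393 bp, 2808 and 4841 bp, and 6868 and 7591 bp in the same order of groups. Both Dex groups were below LPS alone without overlap in both windows, each at p = 0.333 in the exact permutation test (two-sided), the lowest that 2 against 2 libraries allow. Over the full lists the difference from LPS alone in the Tnf, Lta and Ltb window was -4594.5 bp with Dex before LPS and -5245.5 bp with Dex late, from a common minimum z-score it was -3671 and -4678 bp, and with lists of equal length it was -3174.5 and -3906.5 bp. In the Ptgs2 window these differences were -3576.5 and -3405 bp over the full lists, -3382 and -2765 bp from the common minimum, and -2761 and -1907 bp with lists of equal length, all in the order pre-treated, late-treated. Both alternatives drop whole hotspots and keep the deposited widths of the others. The part of each list's calling threshold in those widths was therefore not tested. The Dex groups overlapped each other (exact permutation p = 0.667 for the Tnf, Lta and Ltb window and 1 for the Ptgs2 window).

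Regions that not every library listed mostly had low z-scores within their lists. Their MaxD was not always low in the Tnf, Lta and Ltb window. At 35309237 it reached 25.8 in pre-treated replicate 2, where the median of the list was 12.1. All 6 libraries listed 5 of 12 regions in the Tnf, Lta and Ltb window and 4 of 11 in the Ptgs2 window, against 42.5% of all regions. Just past the stated end of Ptgs2, the region at 151955297 to 151956155 was listed in both LPS libraries, at a MaxD of 5.02 and 7.98, and in no Dex library. Next to it, each LPS library listed a weak hotspot that no other library had, at 151953479 to 151954224 in replicate 1 (MaxD 7.36) and at 151956430 to 151957010 in replicate 2 (MaxD 6.6). In the Tnf, Lta and Ltb window the region at 35345090 to 35345563 was listed in both LPS libraries, at a MaxD of 13.0 and 14.9, and in no Dex library. Such regions made up 5.18% of the series, so 1 of 11 and 1 of 12 are near the background.

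One region separated the Dex groups by presence. At 35359168 to 35359814 the pre-treated libraries had a MaxD of 16.9 and 19.4 and the LPS libraries of 19.1 and 25.0, while neither late-treated library listed it, a pattern of 0.967% of all regions. The late-treated list of replicate 1 is the shortest of the series and began at a z-score of 11.6, where the pre-treated z-scores for this region were 11.6 and 12.2. The list of replicate 2 began at 8.98. A region at 35332578 to 35333110 was missing from replicate 1 of the late-treated group alone. It had a MaxD of 12.8 and 24.7 in the pre-treated libraries, 11.1 in replicate 2 of the late-treated group, and 18.4 and 15.6 in the LPS libraries. Of the 6 regions that a single library listed, 5 came from an LPS library and 1 from pre-treated replicate 2. In the Ptgs2 window the region at 152013929 to 152014669 had a MaxD of 5.76 and 9.11 in the pre-treated libraries, 9.3 in late-treated replicate 2, and 9.7 and 12.1 in the LPS libraries. The region at 151998240 to 151999061 had 6.83 in pre-treated replicate 2, 8.41 in late-treated replicate 2, and 12.4 and 9.03 in the LPS libraries. Replicate 2 of the late-treated group (14.2) and replicate 2 of the LPS group (13.2) alone listed the region at 35326171 to 35326465. Where not all libraries listed a region of either window, the late-treated listings came from replicate 2, the longer late-treated list. At the edge of the window, the region at 35309237 to 35310568 was listed by 5 libraries, but its pre-treated and late-treated hotspots ended before the edge, so only its LPS hotspots are among the 99.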

How the data were processed

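DNase-seq of 6 libraries was read from the authors' deposited hotspot lists, one per library and none pooled. Per the submitters' processing notes, reads went through CASAVA and positions are in mm9; for the aligner, the hotspot caller and the calling threshold, nothing is given in the sources used here. Fragments freed by DNase I were sequenced from a single end, per the labels' protocols. The deposited signal values are the maximum (MaxD) and average (AveD) tag density of each hotspot, the deposited score is its z-score, and the deposited p-value belongs to that z-score, per the file headers. Whether positions count from 0 or 1 is not stated, and they are printed as deposited. Members, windows and tests were chosen with earlier results of these data known.

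Hotspots sharing at least 1 bp were joined into regions, and a region's MaxD in a library is the highest of its hotspots. Regions listed by all 6 libraries entered limma 3.58.1 (R 4.3.3) with a mean-variance trend, 3 groups in one fit, after median centring of log2 MaxD. A region that the Dex libraries no longer list cannot enter this fit. The limma step was tested on simulated data with noise that was independent between libraries. That simulation does not cover the joint deviation of same-numbered libraries described below. Covered lengths were compared by exact permutation. Total depth is unknown, so no counting interval is given. In each window the text names the 3 regions with the highest mean MaxD, the widest, every called region, and those that 2 libraries of a group list and another group lacks; the other regions are named beside these to account for all members, and the edge region, the single-library regions and the region missing from 1 late-treated library were named after their values were seen. The labelled cell type could not be checked on marker genes, since no mm9 annotation was used. Promoters came from RefSeq (GRCm38.p6).

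Alternatives were no centring, quantile normalization, AveD or z-score for MaxD, stronger regions or hotspots alone, hotspots up to 500 bp apart merged, lists of equal length, a cover of at least 50%, limma without trend, a block for the replicate number, and leaving out each library. A common minimum z-score in the limma fit and the average density weighted by length were added after seeing the data.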

Additional observations from a re-analysis of the deposited data

How the results depend on the processing

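Taking the stronger 50% of each list left 3 of 5 regions listed by all 6 libraries in the Tnf, Lta and Ltb window and 2 of 4 in the Ptgs2 window. The single Ptgs2 region called with Dex before LPS became 2 under quantile normalization, 0 among the regions with higher mean density, 0 with the stronger 50% and 0 from a common minimum z-score. In the last 3 the region 84.4 kb before the start is no longer in the table. Leaving out a library leaves 1 library in a group, so no count is drawn from those fits. No alternative called a shared region of the Tnf, Lta and Ltb window.

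The replicate block, a term for the replicate number, called 2 Ptgs2 regions with Dex before LPS, 2 with Dex late and 1 between the Dex groups, where the fit without it called 0 in the last pair of comparisons. These were the Ptgs2 start (limma adjusted p = 1.07e-08 with Dex before LPS and 0.000944 with Dex late) and the region 84.4 kb before it (2.26e-10, 0.0104 with Dex late and 0.0199 between the Dex groups). Over all 25091 regions it called 1662, 1134 and 40, against 21, 20 and 0. Same-numbered libraries deviated together (correlations 0.603, 0.538 and 0.536 across regions), but the labels do not say that the 2 numbers pair libraries.

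Other settings gave, for Dex before LPS and Dex late, 100 and 81 calls (quantile normalization), 87 and 86 (z-score), 3 and 7 (higher mean density), 0 and 3 (stronger 50%) and 7 and 5 (common minimum). Without the trend limma called 6 with Dex late. Without single libraries the counts were 0 to 31 and 0 to 10. Causes were not tested.

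Differences near 0 changed sign. With Dex before LPS, the region at 152011619 gave -0.03 under quantile normalization, -0.04 with average density, -0.02 at higher mean density and -0.04 with the stronger 50%. The region at 35355217 gave -0.07 under quantile normalization, -0.00477 with z-scores, -0.03 at higher mean density and -0.05 with the stronger 50%. With Dex late, average density gave 0.06 at 35334735, 0.01 at 35346378 and 0.01 at 35355217. This average is that of the densest piece where a library splits a region, as at 35334735 and 35355217, so those signs follow from how it was taken. Weighted by length over all pieces, an alternative added after seeing the data, it gave -0.28, 0.01 and -0.18 at these regions with Dex late, and -0.04 at both 152011619 and 35355217 with Dex before LPS. With single libraries left out, 152011619 ranged from -0.29 to 0.32 (Dex before LPS), -0.16 to 0.41 (Dex late) and -0.41 to 0.20 (pre-treated minus late-treated). The region at 35355217 ranged from -0.15 to 0.16, -0.48 to 0.27 and -0.27 to 0.49 in the same comparisons. The range was -0.25 to 0.10 at 35334735 (pre-treated minus late-treated) and -0.16 to 0.06 at 35346378 (Dex late). Covered length between the Dex groups ranged from -838 to 2140 bp in the Tnf, Lta and Ltb window and from -1188 to 845 bp in the Ptgs2 window.

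Under the alternatives, 143 values that answer a comparison and 260 values of single regions kept their direction and side of the threshold or, for counts, stayed within 1.5 times. Of the others, 13 counts moved further and 4 covered lengths reversed, and of the single-region values 28 reversed, 5 newly passed the threshold and 4 no longer did. Those 4 were the region 84.4 kb before the Ptgs2 start, in fits that left 1 library in a compared group. Depth is unknown, and 2 libraries per group limit the precision.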
